A study of Mus musculus with 10 samples.

Results

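The small nucleolar RNA genes (Snord and Snora) and small Cajal body RNA genes (Scarna) of the mouse hippocampus were described in the Dp1Yey model of Down syndrome. They were taken as all genes whose symbol opens with Snora, Snord or Scarna followed by a digit and which a probe set of the array names alone. Where a gene had several such probe sets, the one with the highest mean over the 10 arrays stood for it. The rule gave 54 of the 19938 genes on the array: 31 Snord genes, which make box C/D RNAs, 20 Snora genes, which make box H/ACA RNAs, and 3 Scarna genes. These members were carried by 60 probe sets, and 6 members had 2 probe sets each. Of those pairs, 3 (Scarna17, Snora30 and Snord118) held identical values to within 1e-06 on every array.

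The 5 Dp1Yey arrays came from male mice of 16 weeks that were trisomic for a segment of mouse chromosome 16, from Lipi to Zbtb21, which is homologous to part of human chromosome 21. The 5 control arrays came from male littermates of the same age, and the labels put both groups on the C57BL/6N background. Total RNA of the whole hippocampus, both sides, was hybridised to an Affymetrix Mouse Gene 1.0 ST array, with 1 mouse per array. All values are log2 intensities, differences are Dp1Yey minus control, and per-mouse values are given in the order of replicates 1 to 5. The number of arrays limits the precision.

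Small nucleolar RNAs are stable noncoding RNAs that work inside protein complexes of the nucleolus. Box C/D RNAs bind fibrillarin and guide ribose methylation, and box H/ACA RNAs bind dyskerin and guide the conversion of uridine to pseudouridine, mostly on ribosomal RNA. A few of both classes act in the cleavage of the ribosomal RNA precursor instead, and small Cajal body RNAs guide the same modifications on spliceosomal RNAs. In mammals most of these RNAs are cut out of introns, many of them from genes of ribosomal proteins or from noncoding Snhg host genes, so that a probe set within an intron can read the mature RNA and the unspliced host transcript alike.

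All 54 members had RefSeq positions and 0 lay on chromosome 16, so none was within the duplication. The positions placed 53 of the 54 inside another annotated gene, and 46 genes spanned at least 1 member. Of these, 16 ribosomal protein genes held 21 members and 12 long noncoding RNA genes held 15. The exception was Snord118, the U8 RNA, which takes part in the maturation of the large-subunit ribosomal RNAs and lay in no other gene. Snora44 (chr4:132309953-132310069) and Snora16a (chr4:132309465-132309600) lay in Snhg12, and the near-identical Snora73a (chr4:132352775-132352979) and Snora73b (chr4:132352322-132352526), close by on the same chromosome, lay in Snhg3. Snord42a (chr11:78181302-78181346) and Snord42b (chr11:78183059-78183113) shared Rpl23a, whereas Snord104 (chr11:106500991-106501063) lay in the short noncoding gene Gm36220. Snord57 (chr2:130278026-130278088) lay in Nop56, itself a core protein of box C/D complexes, Snord82 (chr1:86356260-86356327) in the nucleolin gene Ncl, and Snord47 (chr1:161038092-161038156) in the noncoding gene Gas5. The build of these positions is GRCm38.p6.

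Host genes of small nucleolar RNAs are known for transcripts that start within a run of pyrimidines, the feature that also opens the mRNAs of ribosomal proteins. Among hosts with a RefSeq promoter sequence, a run of at least 5 bases of C or T covering the start base on the transcribed strand was found at 11 of 35 starts (31.4%, from 33 genes), beside 3330 of all 32851 starts (10.1%). The windows of 30 bases below, from 20 bases before the start to the 10th transcribed base, are shown for hosts of members with an unadjusted p under 0.05 or called by the rank statistic described further on. The capitals mark the C and T bases that cover the start base, whatever their number, and a window without capitals has no C or T there. Windows of Snhg4 and Rpl23a were not used here. Sequences are from RefSeq on GRCm38.p6, 5′ to 3′ on the strand of the host.
Snhg12, chr4:132308658-132308687, plus strand: gtgcaggccgttctcagTCCTTTCTCgctt
Snhg3, chr4:132353677-132353706, minus strand: aggcatagtcgaccacgcctgacttccggg
Rpl39, chrX:37085213-37085242, minus strand: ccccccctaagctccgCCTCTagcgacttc
Gm36220, chr11:106500895-106500924, plus strand: ggccacacgtccattccggCCTCTTatcga
Chd8, chr14:52257751-52257780, minus strand: gcttgcggcgagggctggccgtgctccgcc
Snhg1, chr19:8723467-8723496, plus strand: cacacgttgttcttgtcggCCTCatttttc
Gas5, chr1:161034581-161034610, plus strand: cgccaagggggcgggcccgcgagctcgaca
Gas5, chr1:161035146-161035175, plus strand: gactcagccgccatctcagCCTTTCggagc
The run of at least 5 bases was found at the starts of Snhg12 (host of Snora44 and Snora16a), Rpl39 (Snora69), Gm36220 (Snord104) and 1 of the starts of Gas5 (Snord47). It was not found at the other start of Gas5 or at those of Snhg3 (Snora73a and Snora73b), Chd8 (Snord8) and Snhg1 (Snord22), where the C and T bases number 4. A window without the run says only that these letters are not at that annotated start.

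Some facts of the whole series bear on every value here. Of 97 genes of the duplicated interval above the background floor, 78 were higher in Dp1Yey, by a median of 0.32 over the 97, and 59 passed the test. The hippocampal neuron markers were above the floor for 6 of 6 genes. All 4 choroid plexus markers (Ttr, Folr1, Kcnj13, Kl) had lower means in Dp1Yey, with a median difference of -0.87, and their mean level ranged between 7.82 and 9.03 in Dp1Yey mice and between 8.13 and 10.26 in control mice. With limma 0 of the 4 reached an adjusted p under 0.05 and 3 an unadjusted p under 0.05, and the rank statistic called Ttr, Folr1 and Kl. The 1 blood marker measured of 3 listed, Alas2, was higher in Dp1Yey by 0.56 (limma adjusted p = 0.165). The groups overlapped for Alas2, and the rank statistic called it. Control 2 stood apart: it had the narrowest spread of values of the 10 arrays, with an interquartile range of 3.40, against 3.47 to 3.53 in Dp1Yey and 3.44 to 3.51 in the other controls. The part of these differences in the results was not tested, other than by the alternatives given.

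Small nucleolar RNAs were among the brightest and the dimmest signals of the array. The olfactory receptor genes, used here as the background of the array because their known site of expression is the olfactory epithelium, had a median level of 4.69 over 1027 genes, and the 90th percentile of their means, 5.44, was taken as a floor. Of the 54 members 36 lay above this floor, namely 18 of 31 box C/D genes, 16 of 20 box H/ACA genes and 2 of 3 Scarna genes. In all genes the share above the floor was 76.2%, and in the 300 microRNA genes 35.0%. The median level was 7.54 for box H/ACA genes and 5.79 for box C/D genes, beside 7.13 for all genes. Snord57 was the brightest member at 12.10, followed by Snord104 at 11.71 and Snora52 at 11.50, while Snord58b was the dimmest at 4.18. These are probe set intensities and do not rank the amounts of different RNAs.

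No member passed the test between Dp1Yey and control. With limma over all 19938 genes and Benjamini-Hochberg adjustment, 0 of 54 members reached an adjusted p under 0.05, whereas 0.797% of all genes did. At an unadjusted p under 0.05 there were 10 of 54 members (18.5%), beside 19.5% of all genes, of which 8 were lower and 2 were higher in Dp1Yey. The values of the groups did not overlap for 2 members (3.70%), beside 4.86% of all genes. A rank statistic built after the one used in the study called 5 members (9.26%), beside 3.46% of all genes: Snora44, Snora73a and Snora74a were lower, and Snord42b and Snord47 were higher. All 5 were among the 36 members above the floor (13.9%), beside 4.40% of all genes above it. This statistic ranks fold changes without scaling by a gene's spread. The median SD within groups was 0.17 for those 36 members and 0.08 for all genes above the floor. The members with an unadjusted p under 0.05 were Snord104, Snord8, Snord22, Snora44, Snora74a, Snora73a, Snora69 and Snora73b, all lower, and Snord42a and Snord42b, both higher. The smallest adjusted p of a member was 0.0958, for Snord104.

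The classes leaned apart in direction. The mean was lower in Dp1Yey for 16 of 20 box H/ACA genes and all 3 Scarna genes, but for only 17 of 31 box C/D genes. The share was 57.9% in all genes and 74.9% in olfactory receptor genes, so that a lean to lower values was also present at background level. After each array was centred on its olfactory receptor mean, lower means were found for 11 of 20 box H/ACA, 12 of 31 box C/D and 26 of all 54 members, beside 38.5% of all genes, and the mean difference of box H/ACA genes was -0.07. Above the floor the classes stood further apart, with 13 of 16 box H/ACA genes lower at a median of -0.14 and 7 of 18 box C/D genes lower at a median of 0.07. All genes above the floor had 53.8% lower and a median of -0.01. The difference between the classes was not tested.

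**Figure D1:**
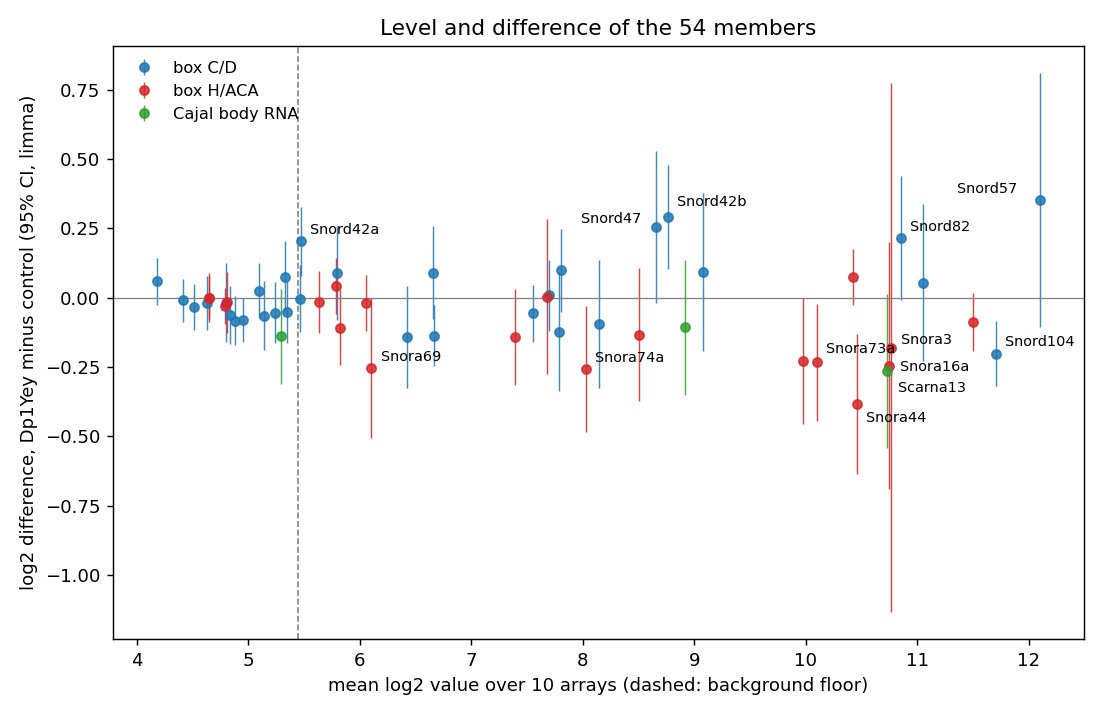
Mean log2 value over 10 arrays (x axis) against the log2 difference Dp1Yey minus control (y axis) for the 54 members, with 95% confidence intervals from limma (n = 5 each) and the background floor of 5.44 as a dashed line. Members above the floor spread between -0.38 (Snora44) and 0.35 (Snord57), while those at or below it stay between -0.14 and 0.08.

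Among the box H/ACA RNAs, Snora44 had the largest difference of any member. Its values were 10.07, 10.37, 10.19, 10.29 and 10.44 in Dp1Yey mice and 10.53, 10.99, 10.32, 10.54 and 10.88 in control mice. Only control 3 fell within the Dp1Yey range, and controls 2 and 5 were highest. The difference was -0.38 ± 0.12 (SE), a ratio of 0.77 with a 95% interval of 0.64 to 0.91, and the adjusted p was 0.129. Its neighbour in Snhg12, Snora16a, behaved in another way. Snora16a had 10.57, 10.46, 10.62, 10.82 and 10.66 in Dp1Yey mice and 10.61, 11.82, 10.55, 10.54 and 10.84 in control mice. Control 2 alone stood out, the other controls lay within or next to the Dp1Yey range, and the difference of -0.24 ± 0.21 (SE, adjusted p = 0.506) was -0.01 without control 2.

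Snora73a and Snora73b are copies of the U17 RNA, which acts in the processing of small-subunit ribosomal RNA rather than as a modification guide. Since the copies are near-identical, their probe sets may share signal and are not independent. Snora73a had 9.90, 9.89, 9.86, 10.12 and 10.14 in Dp1Yey mice and 10.08, 10.50, 9.97, 10.14 and 10.38 in control mice. The 3 lowest arrays were Dp1Yey 1, 2 and 3, whereas Dp1Yey 4 and 5 lay among the controls. Its difference was -0.23 ± 0.10 (SE, adjusted p = 0.221), and that of Snora73b was -0.23 ± 0.10 (SE, adjusted p = 0.256). Snora74a, the U19 pseudouridylation guide hosted by Snhg4, had 7.89, 7.84, 7.75, 8.05 and 7.99 in Dp1Yey mice and 8.03, 8.52, 7.86, 8.11 and 8.28 in control mice. The groups overlapped through controls 1 and 3, controls 2 and 5 were again highest, and the difference of -0.26 ± 0.10 (SE, adjusted p = 0.211) was -0.17 without control 2.

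Snora3, in the ribosomal protein gene Rpl27a, varied more between mice than any other member. It had 10.33, 10.61, 10.84, 10.49 and 11.08 in Dp1Yey mice and 9.99, 12.56, 9.85, 10.30 and 11.56 in control mice. Controls 2 and 5 were above, and controls 1, 3 and 4 below, every Dp1Yey array. The SD was 0.30 in Dp1Yey and 1.17 in control, against a difference of -0.18, and the other probe set of Snora3 gave -0.19. Without control 2 the difference of Snora3 was 0.25. Both Snora69, within Rpl39 (difference -0.25, or -0.14 without control 5, adjusted p = 0.252), and Snora52, within Rplp2 (difference -0.09, or -0.06 without control 2, adjusted p = 0.322), had overlapping groups. The remaining 12 box H/ACA genes differed by -0.14 to 0.07, with Snora70, Snora23 and Snora30 at the lower end and Snora7a, in Rpl32, at the upper end.

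**Figure D2:**
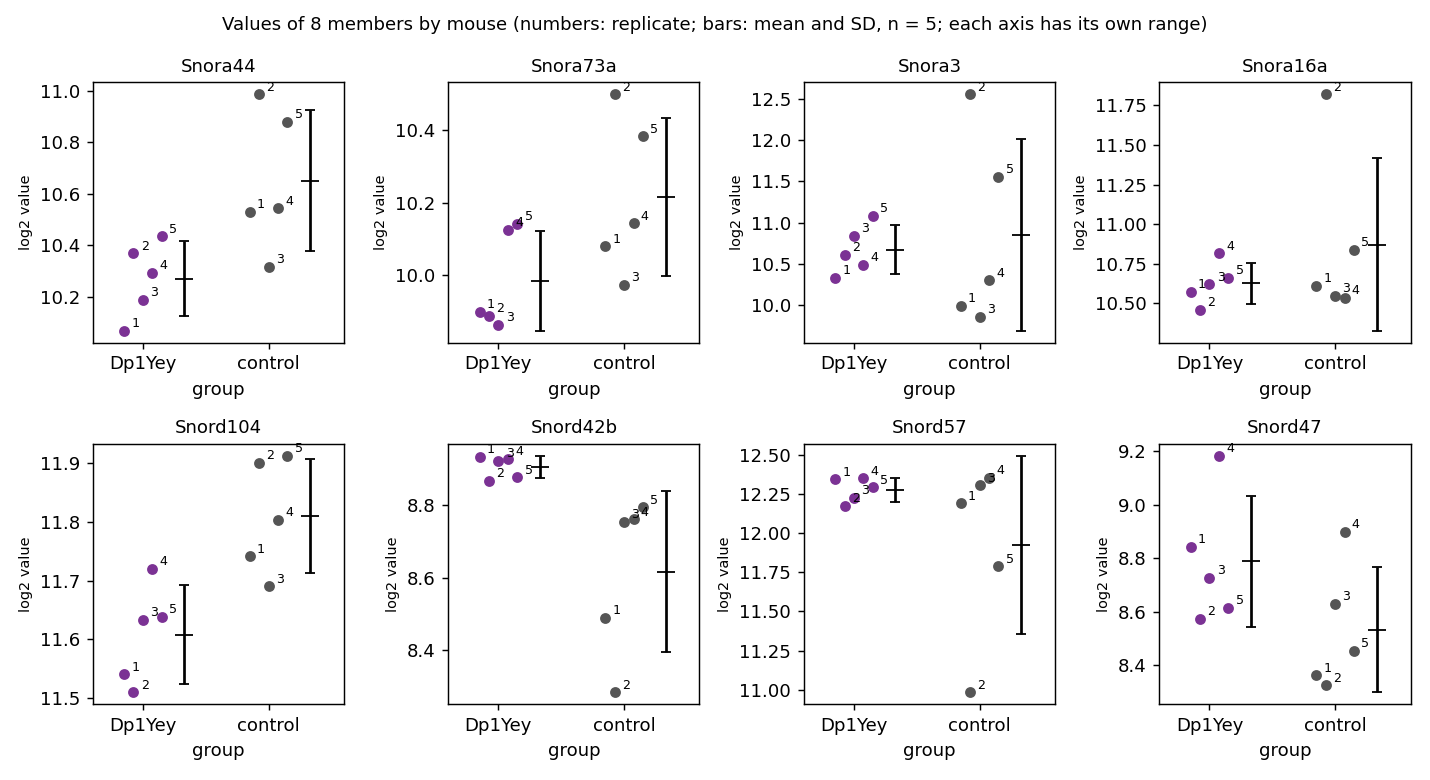
Log2 values of 8 members by mouse, with 5 Dp1Yey arrays left and 5 control arrays right in each panel, numbered by replicate, and the mean with SD as a bar; each y axis has its own range. Control 2 is the highest array for Snora44, Snora73a, Snora3 and Snora16a and the lowest for Snord42b, Snord57 and Snord47.

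The box C/D RNAs differed in both directions. Snord104, a methylation guide for large-subunit ribosomal RNA in human, had 11.54, 11.51, 11.63, 11.72 and 11.64 in Dp1Yey mice and 11.74, 11.90, 11.69, 11.80 and 11.91 in control mice. All Dp1Yey arrays but replicate 4 were below all controls. The difference was -0.20 ± 0.05 (SE), a ratio of 0.87 with a 95% interval of 0.80 to 0.94, at an adjusted p of 0.0958.

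The members that differed most in the opposite direction without overlap were the pair in Rpl23a, which guide methylation of small-subunit ribosomal RNA in human. Snord42b had 8.93, 8.87, 8.92, 8.93 and 8.88 in Dp1Yey mice and 8.49, 8.28, 8.75, 8.76 and 8.79 in control mice. All Dp1Yey arrays were above all controls, although the gap between 8.87 and 8.79 was small. The difference was 0.29 ± 0.09 (SE, adjusted p = 0.121), and it was 0.14 without controls 1 and 2, which were the lowest arrays, and 0.10 with the interquartile range of each array in the fit. That range was itself wider on most Dp1Yey arrays than on the controls, so this fit can take up part of a group difference. Snord42a, with an annotated length of 45 bases the shortest member, had 5.69, 5.54, 5.56, 5.57 and 5.49 in Dp1Yey mice and 5.30, 5.18, 5.43, 5.47 and 5.44 in control mice. Its groups did not overlap either and its difference was 0.20 ± 0.06 (SE, adjusted p = 0.112), but its mean of 5.47 lay at the floor of 5.44, and with the interquartile range in the fit the difference was 0.08. The host Rpl23a itself differed by 0.045 (adjusted p = 0.682), and by -0.0043 without control 2, its lowest array.

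The difference of the brightest member, Snord57, came with 2 low control arrays. It had 12.34, 12.17, 12.23, 12.35 and 12.29 in Dp1Yey mice and 12.19, 10.98, 12.30, 12.35 and 11.79 in control mice. Controls 1, 3 and 4 lay within or next to the Dp1Yey range, control 5 lay below it and control 2 far below it, and the difference of 0.35 ± 0.21 (SE, adjusted p = 0.359) was 0.12 without control 2. Snord82 had 10.92, 10.82, 10.88, 11.15 and 11.03 in Dp1Yey mice and 10.68, 10.39, 10.81, 11.06 and 10.78 in control mice. Only control 4 was within the Dp1Yey range, and the difference of 0.22 ± 0.10 (SE, adjusted p = 0.272) was 0.13 without control 2.

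Snord47, named here after its values were seen because the rank statistic called it, had 8.84, 8.57, 8.73, 9.18 and 8.62 in Dp1Yey mice and 8.36, 8.33, 8.63, 8.90 and 8.45 in control mice. Dp1Yey 4 was the highest array and the groups overlapped, with a difference of 0.25 ± 0.13 (SE, adjusted p = 0.284) that was 0.16 without Dp1Yey 4. Snord49b was bright, at a mean of 11.05, but differed by only 0.05 (95% interval -0.23 to 0.34), and its direction turned under other settings. Snord8, within Chd8, had a difference of -0.14 (adjusted p = 0.183). Snord22, the U22 RNA needed for small-subunit ribosomal RNA processing in Xenopus, was below the floor, at 4.95, and differed by -0.08 (adjusted p = 0.255). Snord118, also named outside the rule, was below the floor at 4.88 with a difference of -0.08 (adjusted p = 0.278). The other 21 box C/D genes differed by -0.14 (Snord14e) to 0.10 (Snord35a).

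Members that share a host did not always share the sign of their mean difference. For all members of this paragraph the 95% interval included no difference, so that their directions were not established. In Rpl13a, Snord35a differed by 0.10 (adjusted p = 0.424) and Snord33 by -0.12 (adjusted p = 0.491). In Rps3a1, Snord73b differed by 0.09 at a level of 9.08 and Snord73a by -0.06 at a level of 4.84, below the floor. In Ncl, the box C/D gene Snord82 was at 10.85, whereas the box H/ACA gene Snora75 was at 4.65, below the floor, with a difference of 0.00.

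The 3 small Cajal body RNA genes were all lower in Dp1Yey, and 0 of 3 had an unadjusted p under 0.05. Scarna13, within Snhg10, is the U93 RNA, which guides pseudouridylation of spliceosomal RNAs and is, with 275 annotated bases, the longest member. It had 10.24, 10.73, 10.54, 10.81 and 10.67 in Dp1Yey mice and 10.85, 11.10, 10.48, 10.76 and 11.12 in control mice. Controls 3 and 4 lay within the Dp1Yey range, and the difference of -0.26 ± 0.13 (SE, adjusted p = 0.278) was -0.17 without Dp1Yey 1. Scarna17 was at 8.92 with a difference of -0.11 (adjusted p = 0.604), which was -0.03 without control 1, -0.06 without control 4 and -0.21 without control 2. Scarna8, within Haus6, was below the floor at 5.29 with a difference of -0.14 (adjusted p = 0.335), which was -0.06 without control 2.

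Taken per mouse, the class means overlapped between the groups. The mean over the 20 box H/ACA genes was 7.58, 7.61, 7.63, 7.72 and 7.65 in Dp1Yey mice and 7.65, 7.98, 7.56, 7.69 and 7.86 in control mice, or 7.64 ± 0.05 and 7.75 ± 0.17 (SD, n = 5 each). Controls 2 and 5 were higher than all Dp1Yey arrays, and control 3 was lower than all of them. The mean over the 31 box C/D genes was 6.79, 6.77, 6.81, 6.94 and 6.78 in Dp1Yey mice and 6.78, 6.73, 6.80, 6.88 and 6.80 in control mice. Dp1Yey 4 was the highest and control 2 the lowest array of this class, and the group means differed by 0.02. The olfactory receptor mean was 4.78 ± 0.01 in Dp1Yey and 4.81 ± 0.02 in control (SD, n = 5 each), with no overlap. That shift of -0.04 belongs to genes near background, and all genes above the floor had a mean difference of -0.0002. The class differences were -0.11 (box H/ACA), 0.02 (box C/D) and -0.17 (Scarna). Without control 2 the box H/ACA difference was -0.05 and the box C/D difference 0.00, and with the interquartile range of each array in the fit they were -0.05 and -0.01. That fit also gave -0.25 for Snora44, -0.12 for Snora73a and -0.13 for Snora74a. The range itself was 3.47 to 3.53 in Dp1Yey and 3.40 to 3.51 in control. This fit can therefore take up part of a group difference. With it 7.3% of all genes had an unadjusted limma p under 0.05, beside 19.5% without it. Snord104, Snord8 and Snora73b kept their differences to within 1.5 times under every alternative run. Snora73b did so only narrowly, with a lowest ratio to the reported difference of 0.67. That ratio was 0.53 for its near-identical copy Snora73a and 0.64 for Snora44.

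**Figure D3:**
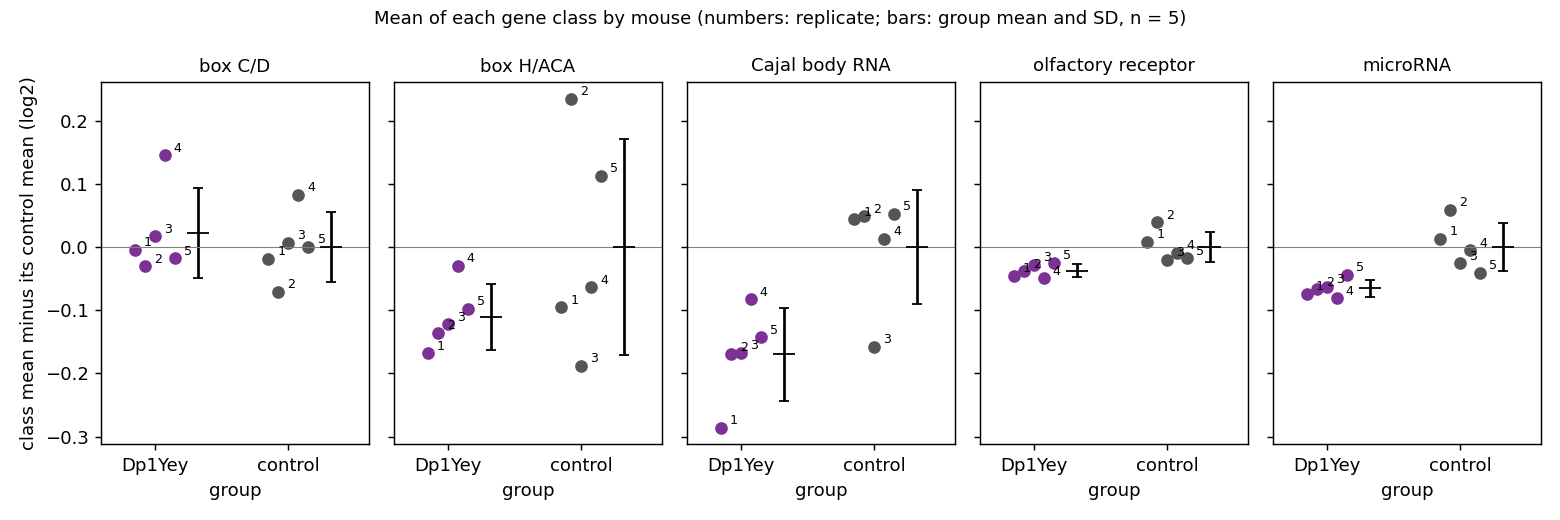
Mean of each gene class in each mouse minus the control mean of that class (log2), with 5 Dp1Yey arrays left and 5 control arrays right, numbered by replicate, and group mean with SD as bars. Control 2 is the highest array for box H/ACA, olfactory receptor and microRNA genes and the lowest for box C/D genes.

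Single arrays stood out more than the groups did. Among the 54 members, control 2 held the highest value of 16 and the lowest value of 13. For the 16 box H/ACA genes above the floor it was the highest array 9 times and the lowest once, and for the 18 box C/D genes above the floor it was the highest 3 times and the lowest 8 times. Dp1Yey 4 held the highest value of 13 members, 10 of them box C/D genes, and the lowest value of 0. The members also varied more between mice of a group than other genes: the median SD within groups was 0.17 for the 36 members above the floor and 0.08 for all genes above the floor. The SD was larger in control for 39 of 54 members (72.2%), beside 70.8% of all genes.

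**Figure D4:**
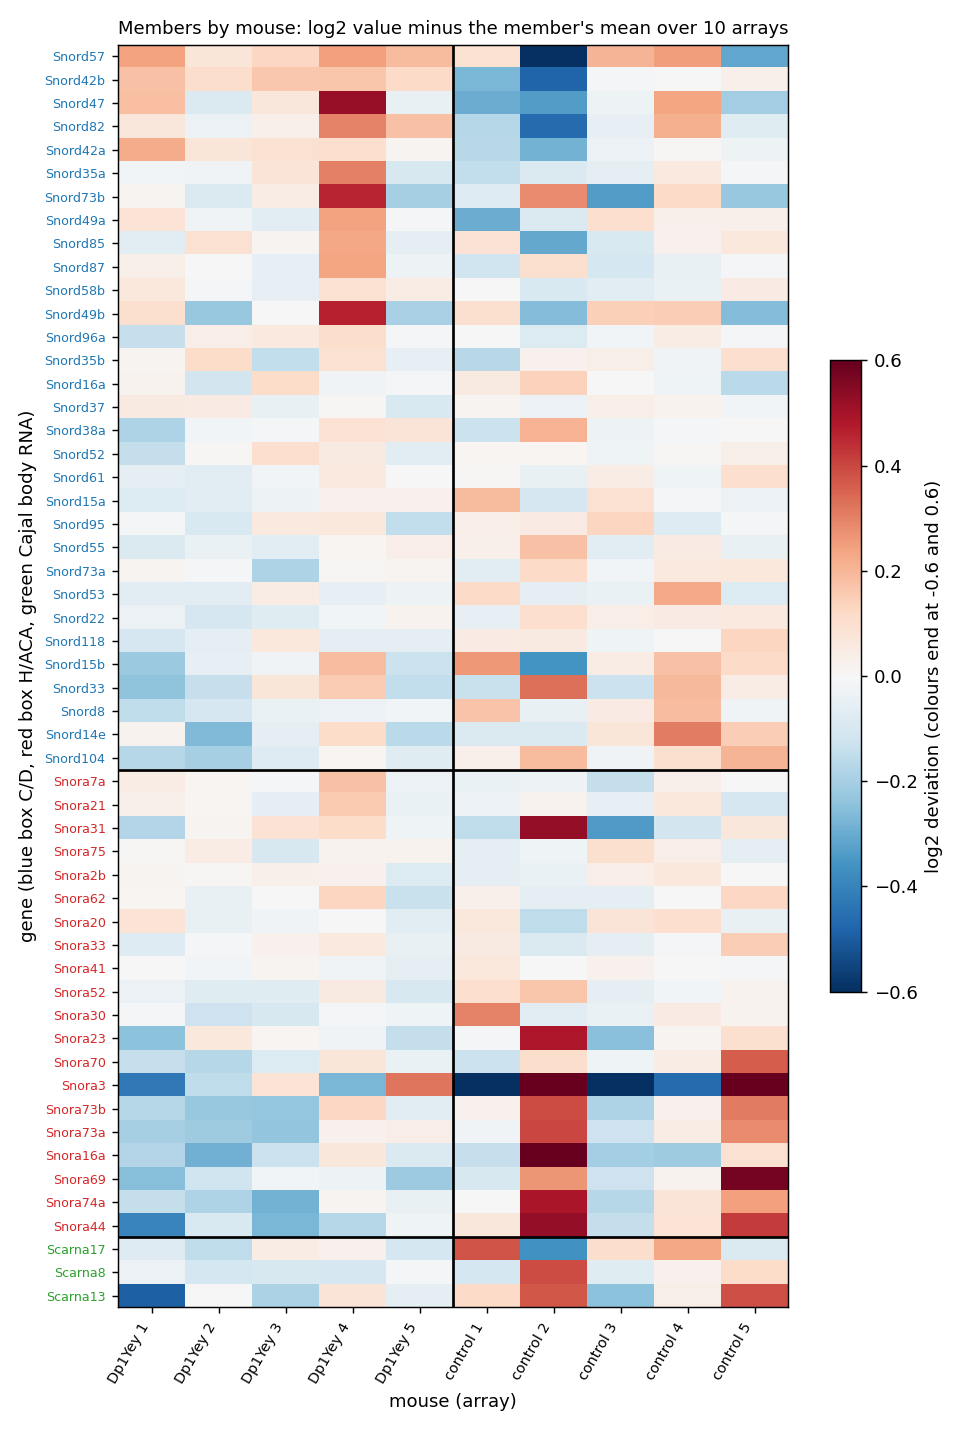
Log2 value of each of the 54 members (rows, by class and by difference) in each of the 10 mice (columns, Dp1Yey left, control right) minus the mean of that member over all arrays; red is higher, blue is lower, and colours end at -0.6 and 0.6. Control 2 shows strong red for box H/ACA genes such as Snora16a and Snora44 and strong blue for box C/D genes such as Snord57 and Snord42b.

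The annotated length of the RNA went with the direction of the difference. Box C/D genes had a median length of 68 bases (45 to 148) and box H/ACA genes of 125 bases (61 to 205). Across the 54 members, the Spearman correlation of length with the log2 difference was -0.60, and it was -0.69 across the 36 above the floor. It had the same sign within box C/D genes (-0.54, n = 31) and within box H/ACA genes (-0.43, n = 20). Of the 18 longest members, with 118 to 275 bases, 16 were lower in Dp1Yey, at a median difference of -0.14. Among the 18 shortest, with 45 to 68 bases, 9 were lower and 9 were higher, at a median difference of 0.02. The 18 longest held 12 box H/ACA and 4 box C/D genes and the 18 shortest held 1 box H/ACA and 16 box C/D genes, so length and class can be told apart only in part. This is a description across genes that share the same 10 arrays, and in part the same hosts and related sequences, and it was noticed after the values were seen.

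A relation with length of like size was present between mice of the same group. When each array was set against the mean of the other 4 arrays of its group, the correlation of length with the deviation over the 54 members was -0.40 to 0.29 in Dp1Yey mice. In control mice it was 0.49 for control 2 and 0.30 for control 5, against -0.15, -0.58 and -0.54 for controls 1, 3 and 4. Thus longer members were relatively high in controls 2 and 5 and relatively low in controls 3 and 4. The deviations within a group are tied, because each array also enters the means set against the others. Their opposite signs are therefore not separate observations. Without control 2 the correlation of length with the group difference was -0.44 (n = 54). Within box H/ACA genes it was then -0.20, whereas within box C/D genes it stayed at -0.54. With the interquartile range of each array in the fit the correlation was -0.35 over the 54 members, -0.41 within box C/D and -0.16 within box H/ACA genes.

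**Figure D5:**
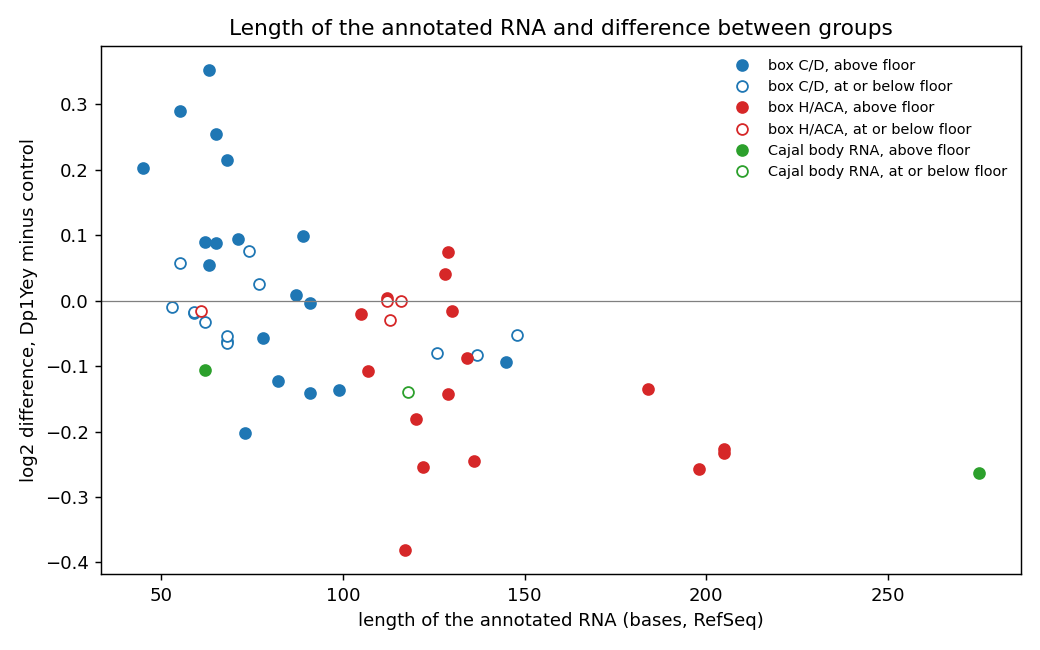
Annotated length of each RNA in bases (x axis, RefSeq) against the log2 difference Dp1Yey minus control (y axis) for the 54 members, coloured by class, with open circles for members at or below the background floor. Members of 184 bases and more all lie below 0, and the members above 0.2 are box C/D genes of 45 to 68 bases.

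A measured host gene was found for 30 members, in 26 hosts. None of the 26 hosts passed the test, and 4 had an unadjusted p under 0.05, against the 19.5% given for all genes. Host differences ranged between -0.12 and 0.30 with a median of 0.02, and 9 of 26 were lower. Member and host had the same sign in 16 of 30 pairs. The groups did not overlap for 3 of 26 hosts, Rbmx, Haus6 and Chd8, beside 4.86% of all genes. Rbmx had the largest difference of a host, 0.30 (adjusted p = 0.198; 0.17 without control 2), and was the only host that the rank statistic called, beside -0.03 for its member Snord61, which was below the floor. Haus6 differed by 0.15 (adjusted p = 0.121), beside -0.14 for its member Scarna8. Nop56 differed by -0.12 (adjusted p = 0.201), while its intronic Snord57 differed by 0.35. Chd8 had 8.85, 8.87, 8.87, 8.87 and 8.81 in Dp1Yey mice and 8.95, 8.98, 9.03, 8.91 and 8.99 in control mice, and differed by -0.12 (adjusted p = 0.103), beside -0.14 for its member Snord8. Gas5 differed by 0.14 (adjusted p = 0.445), beside 0.25 for Snord47, and by 0.02 without control 2, its lowest array. Rpl27a differed by 0.01 (adjusted p = 0.908) and ranged only between 11.06 and 11.32 over all mice, in contrast to the wide range of its member Snora3. Within groups, the hosts had a median SD of 0.07, and the noncoding hosts Snhg12, Snhg3 and Gm36220 had no probe set of their own with a single symbol.

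The proteins of these complexes were measured for 37 of 39 names listed, all above the floor. None passed the test, and 4 of 37 had an unadjusted p under 0.05, beside 19.5% of all genes. They were Ruvbl1, an assembly factor (0.17, adjusted p = 0.171), Nop56 (-0.12), Naf1, an assembly factor of box H/ACA complexes (0.13, adjusted p = 0.205), and Nop10, one of their core proteins (0.15, adjusted p = 0.212). Control 2 was the lowest array for Ruvbl1 (8.04), Naf1 (7.90) and Nop10 (9.88) and the highest for Nop56 (10.22). Means were higher in Dp1Yey for 24 and lower for 13, with a median of 0.03. The box C/D methyltransferase gene Fbl differed by -0.10 (adjusted p = 0.270) and the pseudouridine synthase gene Dkc1 by -0.06 (adjusted p = 0.440). Of the 6 box H/ACA core and assembly genes 5 had higher means, whereas 16 of 20 of the RNAs had lower means. The share of lower means was 57.9% in all genes. Control 2 was the lowest array for the mean of these 6 genes (8.11) and the highest for that of the RNAs (7.98). Both means overlapped between the groups. With olfactory receptor centring 11 of 20 of the RNAs were lower, beside 38.5% of all genes, and the contrast was not tested.

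Other small RNAs were measured on the same arrays. Among 12 genes of other small noncoding RNAs, 0 passed the test. Vaultrc5, an RNA of the vault particle, had 7.31, 7.46, 7.42, 7.57 and 7.30 in Dp1Yey mice and 7.22, 6.82, 7.06, 7.29 and 6.98 in control mice. The groups did not overlap, by a narrow margin, and the difference was 0.34 (adjusted p = 0.0813). Without control 2, its lowest array, the difference was 0.27 (adjusted p = 0.120). The bright Rny3 and Rn7sk differed by 0.02 and 0.03 (adjusted p = 0.759 and 0.584), and Rmrp, the RNA of a ribonuclease that cleaves ribosomal RNA precursors, by -0.08 (adjusted p = 0.395). Of the 300 microRNA genes 74.0% were lower in Dp1Yey and 3 passed the test. A smaller signal in whole tissue cannot tell fewer cells of a type from less RNA per cell, and this holds for all values given here.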

How the data were processed

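The authors deposited one table of log2 values for 10 Affymetrix Mouse Gene 1.0 ST arrays. Per the labels and the study's methods, the arrays were background corrected, quantile normalised and summarised with RMA, and the processing notes name mm10 and limma without a version. The labels and the methods differ on the substrain and on the RNA input, which was not settled here. Of 35556 probe sets, 21789 named 1 gene symbol and were used, 1621 named more than 1, and for 12146 the annotation table had no entry. The brightest probe set stood for each of 19938 genes.

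Groups were compared with limma 3.58.1 in R 4.3.3 (group as the only term, two-sided, Benjamini-Hochberg over all genes, threshold 0.05), tested on simulated data first. The rank statistic of the study was rewritten from its description. Hosts were assigned by RefSeq position alone, since the strand of the members was not in the tables used. Tables were made with Python 3.11.15, pandas 2.3.3 and scipy 1.17.1, and figures with matplotlib 3.10.9.

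The members named were, within box C/D and within box H/ACA, those with the 6 smallest p and the 4 highest means, all Scarna genes, their hosts, the 4 complex proteins with the smallest p, and 2 other small RNA genes of smallest p and 2 of highest mean. Members and lists were chosen with earlier results of these data known. The sequences of the members themselves were not analysed here. Alternatives were other scalings, the floor as a filter, the mean of probe sets, other variance models, a replicate block, the interquartile range as a covariate, the rank statistic and arrays left out. Values of hosts, Vaultrc5 and Snord116 without control 2 were added after the data were seen.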

Additional observations from a re-analysis of the deposited data

Results flagged for a closer look

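The 62 groups of 5 arrays examined came from 31 items on the same 10 arrays and were not independent. The rate of about 1 in 20 that holds for independent groups therefore does not apply. Of the 62 groups, 6 had 1 array far from the other 4. Control 2 was the array in 3 of them: Snora16a at 11.8, with the other controls between 10.5 and 10.8, Gas5 at 8.83, with the others between 9.35 and 9.46, and Rpl23a at 10.3, with the others between 10.5 and 10.6. The mean over the box C/D genes was 6.94 in Dp1Yey 4, with the other Dp1Yey mice between 6.77 and 6.81. The mean over the Scarna genes was 8.24 in control 3, with the other controls between 8.41 and 8.45. Chd8, the host of Snord8, was at 8.81 in Dp1Yey 5, with the other Dp1Yey mice between 8.85 and 8.87.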

How the results depend on the processing

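In all 20 alternative limma settings 0 members passed the test, as in the setting reported, while between 46 and 317 of all genes did (159 as reported) and between 3 and 12 members had an unadjusted p under 0.05. The smallest adjusted p of a member was 0.061 (Snora44 without control 3), and over its alternatives that of Snora44 went up to 0.787. The rank statistic called 5 members. Of the members above the floor, 22 of 36 were lower in Dp1Yey. Leaving out 1 array at a time gave 34 to 40 members lower, a box C/D mean difference of -0.01 to 0.04, a box H/ACA one of -0.16 to -0.05 and a Scarna one of -0.21 to -0.14. The floor at the 75th and 95th percentile of the olfactory receptor means left 42 and 33 members above it. The direction of the host Rpl23a turned without control 2 (-0.0043), an alternative added after the data were seen. The direction turned for 3 of 20 named members: Snora16a with the interquartile range as a covariate (0.0765); Snora3 with array weights (0.0195), the interquartile range (0.36), without controls 1 and 2 (0.10) and without control 2 (0.25); and Snord49b with the interquartile range (-0.0467), without Dp1Yey 4 (-0.055), without control 2 (-0.0044) and without control 5 (-0.0038). Leaving out 1 array at a time gave -0.43 to 0.25 for Snora3 and -0.055 to 0.117 for Snord49b. The cause was not tested. The other 389 of 398 values kept their direction and their side of the threshold. With the replicate number as a block (replicate block), 0 members and 94 genes passed. Deviations of same-numbered arrays correlated at 0.06, 0.01, 0.04, 0.22 and -0.33, and only 1 of 5 matched its own number best. The values thus gave no sign that the numbers pair the mice, but this check cannot exclude a pairing. For the 18 members at or below the floor, the signal is near background, so a difference or its absence says little about the RNA. These members are still counted in the values given for all members of a class and for length over all members.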

Other observations

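Small nucleolar RNA genes of the imprinted Snord116 cluster, which is lost in Prader-Willi syndrome and strongly expressed in brain, were carried only by probe sets that name several genes and so entered no comparison above. The 24 probe sets of Snord116 lay between 12.28 and 12.62, brighter than any member with a probe set of its own. Their mean was 12.64, 12.63, 12.62, 12.67 and 12.72 in Dp1Yey mice and 12.53, 12.11, 12.61, 12.68 and 12.57 in control mice. All 24 had higher means in Dp1Yey, by 0.15 to 0.20, but many of them held near-identical values and all overlapped between the groups, with control 2 as the lowest array. Without control 2 the mean difference was 0.06 in place of 0.16. Of the other 17 probe sets of this kind, the one for Snora24 and Snhg8 had 4.97, 4.92, 5.04, 5.04 and 5.02 in Dp1Yey mice and 5.17, 5.44, 5.05, 5.12 and 5.20 in control mice. These groups did not overlap, at a level below the floor. The probe sets for Snord34 and Snord32a, each shared with Rpl13a, differed by 0.24 and 0.17, with Dp1Yey 4 as the highest array of both.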
